A study of Mus musculus with 8 samples.

Results

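Scg5, the granins and the enzymes that process prohormones are described here in the hippocampus of aged mice transgenic for amyloid precursor protein (APP). The set names 10 genes, of which 9 are among the 19505 genes with a probe set named for them on the array: the convertases Pcsk1 and Pcsk2, their inhibitor and chaperone Pcsk1n and Scg5, the carboxypeptidase Cpe, and the granins Chga, Chgb, Scg2, Scg3 and Vgf. Scg5 was chosen from among all genes because its log2 values separated mice with impaired memory from mice with intact memory. The other 9 were added for their place in the same pathway. The impaired and intact values of these genes were in view when the set was made, so they are given as a description, and nothing is read from the p-values of the fit across all genes for them. The 9 had 1 probe set each, and all 9 passed the filter on dim genes. The expression of Pcsk2 was not analysed here.

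The samples were hippocampi of 4 mice with impaired memory and 4 mice with intact memory, each on its own array. All 8 belonged to B6.Cg-Tg(APPswe)E1-2Dbo/J and were 18 to 20 months old, and all had gone through the Morris water maze, in which a mouse learns where a platform lies under water. Every mouse carried the transgene, so no comparison with mice that lack it was made, and the sex of the mice and the promoter of the transgene were not used here. Expression levels are log2 values from robust multi-array averaging (RMA), so that 1 unit stands for a doubling. The median of the 14628 genes tested was 7.75 to 7.79 on the 8 arrays, and the number of arrays limits the precision. Of the 12 hippocampal markers listed, among them Prox1 of dentate granule cells and Fibcd1 of CA1 pyramidal cells, 11 were measured and all 11 lay above the floor of 5.33 that a gene had to pass. That floor is low, and 8 of the 11 had a mean above 7.98, the 95th percentile of the intron probe sets, which are negative controls.

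Neurons that release peptides make them as larger precursors, which enter dense-core vesicles in the trans-Golgi network. There the prohormone convertases cut the precursors after pairs of basic residues, the carboxypeptidase encoded by Cpe trims the exposed basic residues, and granins help to form the vesicle and give rise to peptides of their own. The Scg5 protein, 7B2, binds the convertase encoded by Pcsk2, keeps it from acting too early and is needed for it to become active. The Pcsk1n protein, proSAAS, is an inhibitor of the convertase encoded by Pcsk1.

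Several granin genes are known as targets of the transcription factor CREB, which binds the cyclic AMP response element (CRE), so their promoters are shown to let Scg5 be compared with them. The search covered the 250 bases before the transcription start in the RefSeq promoter table (assembly GRCm38.p6), which held 8 of the 10 genes. Vgf and Cpe had no entry. The full CRE, TGACGTCA, which reads the same on both strands, lay in 3 of the 8 promoters, those of Chgb, Scg2 and Pcsk1, and in 1.55% of the 32851 promoters of the table. Its core TGACG was searched on both strands, so also as CGTCA, and any full element contains it. It lay in 7 of the 8 promoters and in 17.8% of all promoters of the table. A match describes the letters only. In the sequences, the capitals mark these elements.
Chgb (chr2:132781554-132781593, + strand): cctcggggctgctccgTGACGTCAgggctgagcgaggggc
Scg2 (chr1:79440071-79440110, - strand): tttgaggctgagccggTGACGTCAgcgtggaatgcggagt
Pcsk1 (chr13:75089763-75089802, + strand): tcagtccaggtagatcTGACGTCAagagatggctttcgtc
Chga (chr12:102554881-102554920, + strand): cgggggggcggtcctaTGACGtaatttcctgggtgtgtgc
Scg3 (chr9:75684063-75684102, - strand): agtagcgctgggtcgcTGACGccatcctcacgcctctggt
Pcsk2 (chr2:143546083-143546122, + strand): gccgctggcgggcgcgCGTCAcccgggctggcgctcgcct
Scg5 (chr2:113829092-113829341, - strand): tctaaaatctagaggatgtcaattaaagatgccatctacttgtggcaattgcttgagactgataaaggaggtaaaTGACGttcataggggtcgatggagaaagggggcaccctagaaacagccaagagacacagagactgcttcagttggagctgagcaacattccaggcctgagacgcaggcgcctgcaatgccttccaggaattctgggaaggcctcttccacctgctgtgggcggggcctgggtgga
The full elements of Scg2, Chgb and Pcsk1 began 68, 72 and 78 bases before the start, and the cores of Scg3, Pcsk2 and Chga 30, 34 and 44 bases before it. In Scg5 the whole 250 bases are shown, and their only core began 175 bases before the start, while every core in the other 6 began within 78 bases of it. For Pcsk1 and Scg3 the start in the promoter table differs from the outer end of the RefSeq gene, so their distances hold for the table's start only. The Pcsk1n window held neither form.

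Scg5 was lower in every impaired mouse than in any intact mouse. Its log2 level was 10.34, 10.67, 10.33 and 10.48 in impaired mice 1 to 4, against 11.34, 11.14, 11.32 and 10.98 in intact mice 1 to 4. The highest impaired value, in mouse 2, lay 0.31 below the lowest intact value, in mouse 4. The means were 10.45 ± 0.16 in the impaired group and 11.19 ± 0.17 in the intact group (SD, n = 4 each), a log2 difference, impaired minus intact, of -0.74 with a standard error of 0.11. The spread within either group was thus small beside the distance between them, which corresponds to 1.67-fold lower expression in the impaired mice. In bulk tissue, fewer cells that express the gene and less RNA per cell cannot be told apart. Among all 14628 genes tested, 6 had a larger difference in either direction.

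**Figure D1:**
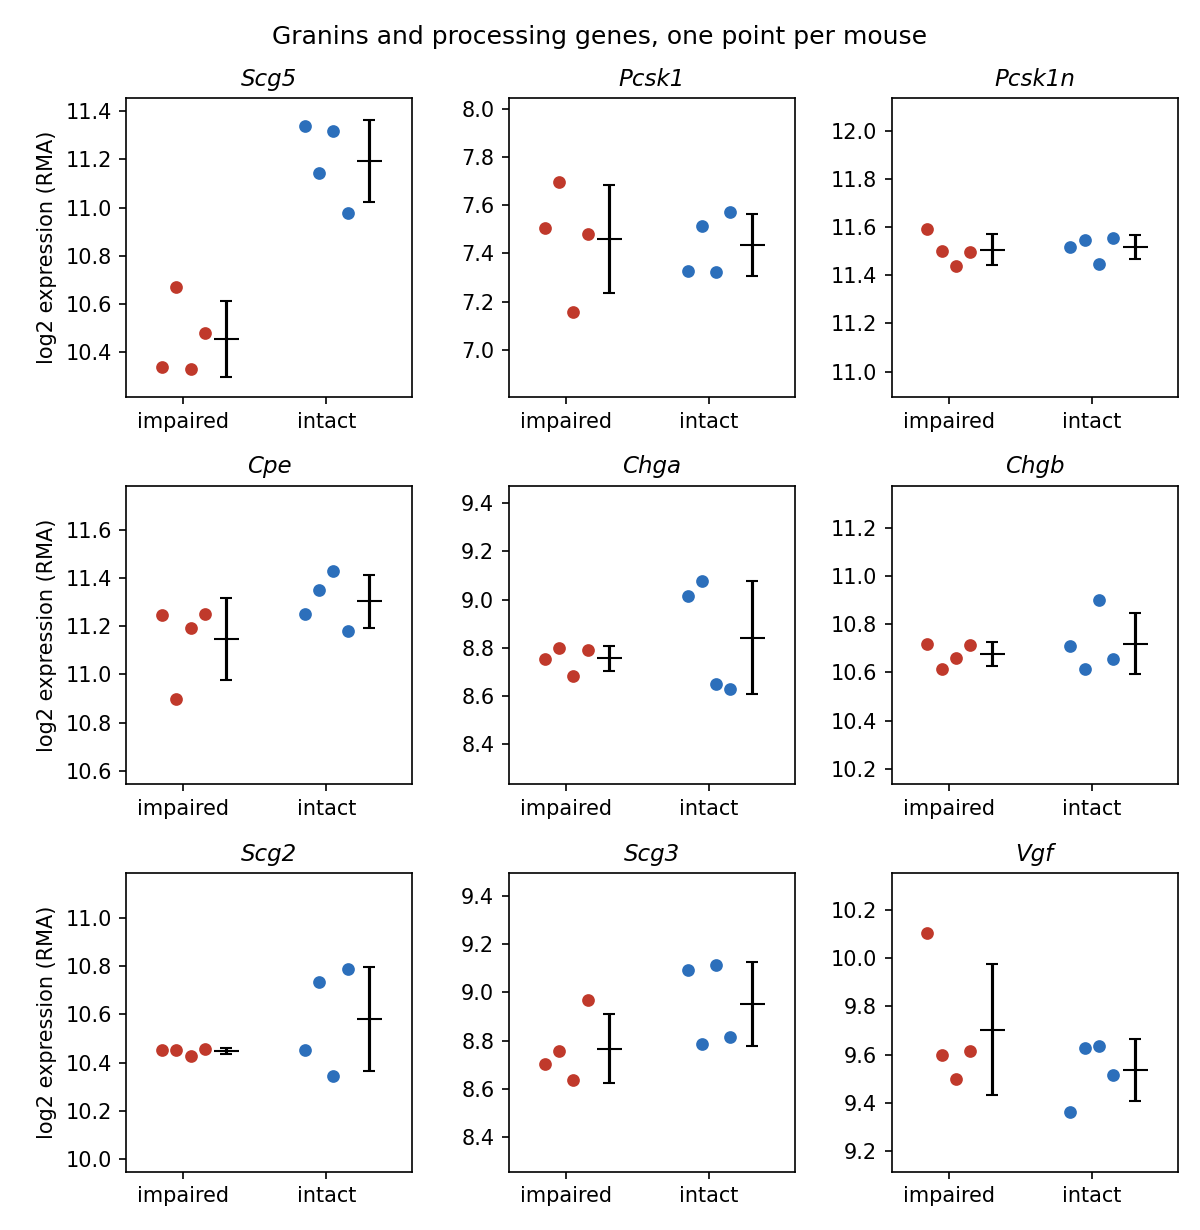
Log2 expression (RMA) of the 9 measured genes in each mouse, impaired in red and intact in blue, with the group mean and SD (n = 4) as black bars; every panel spans the same number of log2 units. The Scg5 values of the groups lie apart by 0.31, while in the other 8 panels the groups overlap.

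For the other 8 genes the groups overlapped, and in the fit to all 8 mice their differences stayed within 0.2 on the log2 scale in either direction. Leaving out 1 mouse or adding covariates took 3 of them past that size, as given with each gene. Groups that do not overlap were thus found for 1 of the 9 genes, Scg5, and for 2.58% of all genes tested, 1.46% being lower in the impaired group. By limma with Benjamini-Hochberg adjustment over all genes, 0 of the 9 passed an adjusted p of 0.05, as did 0% of the genes tested. At an unadjusted p under 0.05 the count was 1 of 9, again Scg5, and 4.68% over all genes. The values of these genes chose the set, so nothing is read from these counts. The median difference was -0.085 over the 9 genes and -0.064 without Scg5, beside -0.0083 over all genes tested.

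Of the convertases, Pcsk1, which makes the first cuts in many prohormones, was 7.51, 7.69, 7.15 and 7.48 in impaired mice 1 to 4 and 7.32, 7.51, 7.32 and 7.57 in intact mice 1 to 4. Both the highest and the lowest value belonged to impaired mice, numbers 2 and 3. The difference was 0.025 (95% interval -0.24 to 0.29). On all 8 arrays Pcsk1 lay below 7.98, the 95th percentile of the 5222 intron probe sets of the array, its negative controls, and above their 75th percentile of 6.36. The other 8 measured genes lay above the 95th percentile on every array.

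Pcsk1n, whose product inhibits that convertase, varied least of the 9 genes. It was 11.59, 11.50, 11.44 and 11.50 in the impaired mice and 11.52, 11.54, 11.44 and 11.55 in the intact mice. Its difference was -0.0089 (95% interval -0.17 to 0.16). Cpe, which removes the basic residues left by the convertases, was 11.25, 10.90, 11.19 and 11.25 in the impaired mice and 11.25, 11.35, 11.43 and 11.18 in the intact mice. Impaired mouse 2 was the lowest, and the other 3 impaired mice lay inside the intact range. The difference of Cpe was -0.16 (95% interval -0.38 to 0.068), and without impaired mouse 2 it was -0.072.

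The classical granins Chga and Chgb are acidic proteins that bind calcium and aggregate in the vesicle. Chga was 8.76, 8.80, 8.68 and 8.79 in the impaired mice and 9.01, 9.08, 8.65 and 8.63 in the intact mice. Intact mice 1 and 2 were thus above, and intact mice 3 and 4 below, all impaired mice, and the SD was 0.052 in the impaired group and 0.24 in the intact group (n = 4 each). Chgb was 10.72, 10.61, 10.66 and 10.71 in the impaired mice and 10.71, 10.61, 10.90 and 10.65 in the intact mice, with intact mouse 3 the highest. The differences were -0.085 (95% interval -0.33 to 0.16) for Chga and -0.043 (95% interval -0.23 to 0.14) for Chgb. That of Chga was -0.0073 without intact mouse 2 and -0.16 without intact mouse 4.

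Scg2, the precursor of the peptide secretoneurin, was 10.45, 10.45, 10.43 and 10.45 in the impaired mice, with an SD of 0.013. In the intact mice it was 10.45, 10.73, 10.34 and 10.79, with an SD of 0.21. The 4 impaired values lay close together inside the wider intact range, and the difference was -0.13 (95% interval -0.37 to 0.099). It was -0.21 without intact mouse 3 and -0.064 without intact mouse 4. Scg3, which ties granin aggregates to the vesicle membrane, was 8.70, 8.76, 8.64 and 8.97 in the impaired mice and 9.09, 8.79, 9.11 and 8.82 in the intact mice. It had the largest difference after Scg5, -0.19 (95% interval -0.43 to 0.054), and impaired mouse 4 lay above intact mice 2 and 4. With marker scores for choroid plexus and thalamus as covariates the difference of Scg3 was -0.068, and without impaired mouse 4 it was -0.25.

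Vgf encodes a granin-like precursor whose mRNA is induced by neuronal activity and neurotrophins. It was 10.10, 9.60, 9.50 and 9.62 in the impaired mice and 9.36, 9.63, 9.64 and 9.51 in the intact mice. Impaired mouse 1 stood 0.47 above the next mouse, and the other 3 impaired values lay within the intact range. The difference was 0.17 (95% interval -0.12 to 0.46), and without impaired mouse 1 it was 0.035. With both marker scores as covariates it was 0.26.

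**Figure D2:**
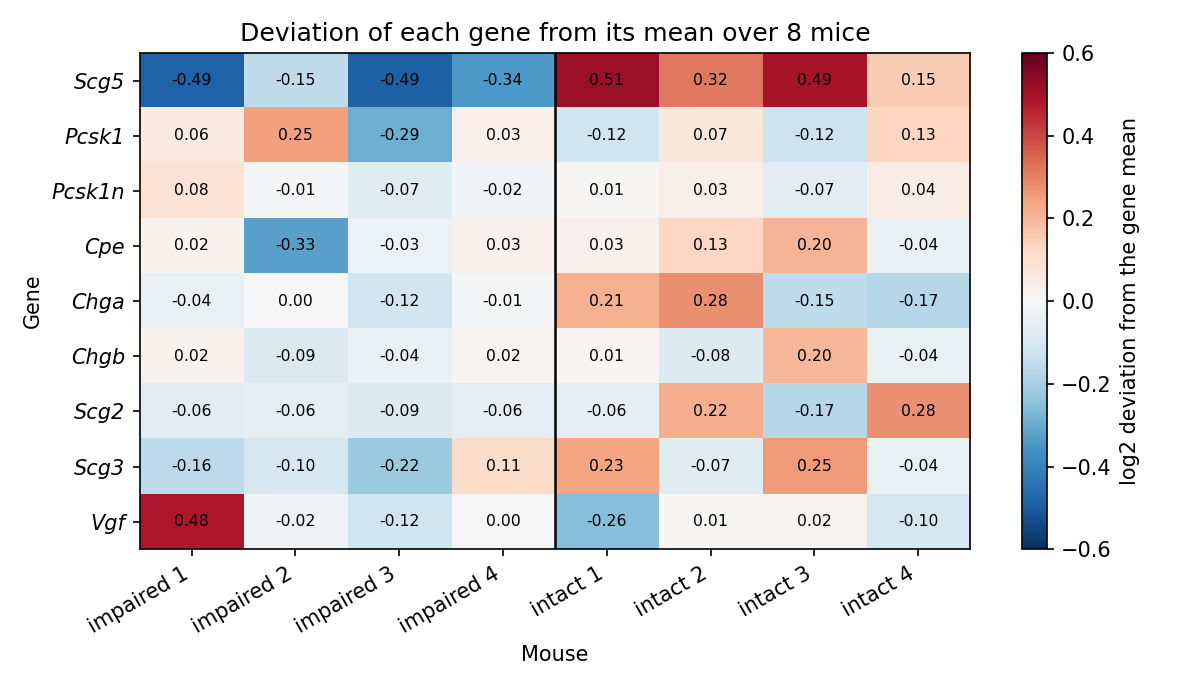
Deviation of each gene from its own mean over the 8 mice, on the log2 scale, with impaired mice left of the black line and intact mice right of it; red is above and blue below the mean. Scg5 is below its mean in all 4 impaired mice and above it in all 4 intact mice, whereas the large deviations of Vgf (impaired mouse 1) and Cpe (impaired mouse 2) belong to single mice.

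The same mouse stood out in immediate early genes, the first genes that active neurons switch on. Chosen after values of these data were seen, Npas4, Arc, Fos, Egr1, Junb and Nr4a1 were all highest in impaired mouse 1. The margin over the next mouse ran from 0.17 for Junb and 0.22 for Egr1 to 0.93 for Npas4. Npas4 was 7.94 in impaired mouse 1, against 6.62 to 7.02 in the other impaired mice and 6.44 to 6.82 in the intact mice. Arc was 8.50 in impaired mouse 1, against 7.71 to 7.95 in the other impaired mice and 7.51 to 7.87 in the intact mice. All 8 Npas4 values lay below the 95th percentile of the intron probe sets. Arc, Fos and Junb passed it on 1 array each. Scg2 and Pcsk1, whose promoters hold the full CRE shown above, were not at their highest in impaired mouse 1, at 10.45 and 7.51. Chgb, the other gene with the full CRE, was 10.72 there, the highest of the impaired group and below the 10.90 of intact mouse 3. Bdnf, a neurotrophin packed into dense-core vesicles, was 8.62 in impaired mouse 1, against 8.12 to 8.29 in the other impaired mice and 7.94 to 8.18 in the intact mice. Why Vgf and these genes were high in this 1 mouse was not tested.

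**Figure D3:**
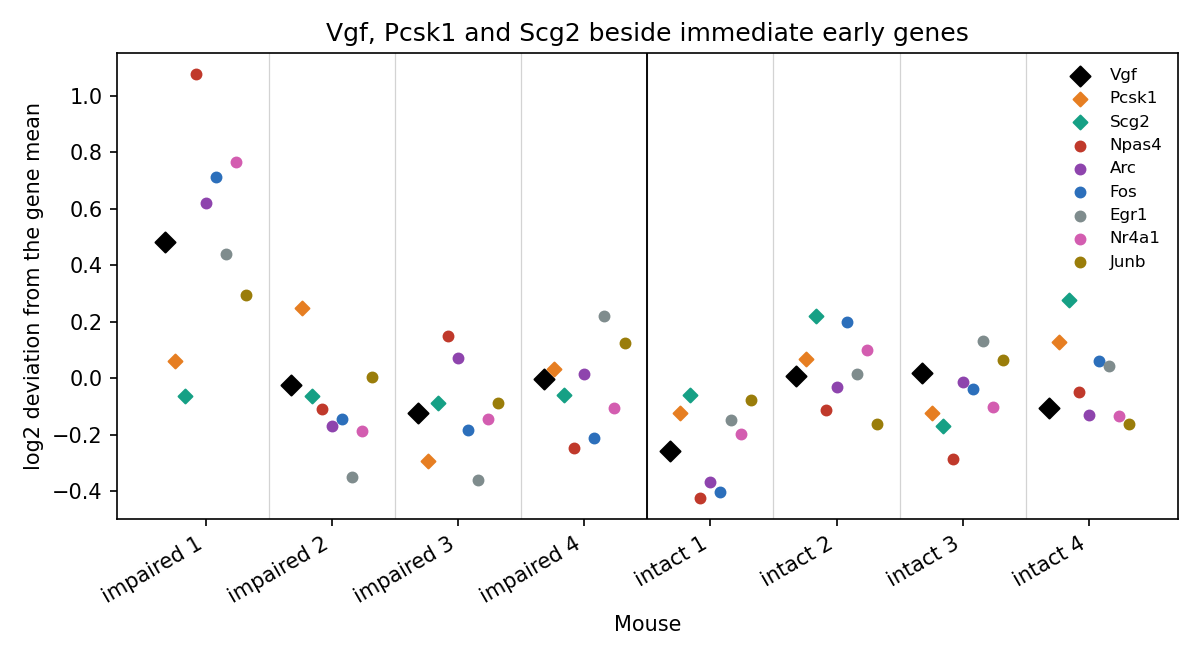
Deviation from the gene mean, on the log2 scale, of Vgf, Pcsk1 and Scg2 (diamonds) and of 6 immediate early genes (circles) in each mouse, impaired mice left of the black line and intact mice right of it. Vgf and all 6 immediate early genes are highest in impaired mouse 1; Pcsk1 and Scg2 are not.

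Whether the genes vary together was examined after each group's mean had been removed, which leaves out the difference that chose the set. Over the 36 pairs of 9 genes and 8 mice, 18 correlations were positive and 18 negative, with a median Pearson r of 0.030. By exact permutation within the groups (576 pairings, two-sided) 0 pairs passed an adjusted p of 0.05, the smallest being 0.312, and 2 had an unadjusted p under 0.05. Spearman's rho was taken on ranks within each group. The 2 pairs were Pcsk1n with Scg2 (r = 0.59, rho = 0.60, exact permutation p = 0.0104 and 0.212) and Pcsk1 with Scg2 (r = 0.53, rho = 0.70, exact permutation p = 0.0174 and 0.111). Without the 2 mice farthest from the median of the first gene, r was 0.61 and 0.96. The SD of Scg2 was 0.013 in the impaired group and 0.21 in the intact group, so both correlations rest largely on the intact mice. Scg5 correlated most with Scg3 (r = 0.66, rho = 0.70, exact permutation p = 0.104 and 0.111, adjusted p = 0.625 and 0.800), and r was 0.81 without the 2 mice farthest from the median of Scg5.

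The genes most like Scg5 were sought by the root mean square difference between the deviations of a gene and those of Scg5 over the 8 mice. Scg5 itself deviated from its mean by 0.40 in these terms, so a gene that did not vary would lie at 0.40. The deviations hold the group difference that chose Scg5, and genes lower in the impaired mice come near it for that reason. The places over the 8 mice are thus a description only. The 5 nearest were Frzb (0.195), a secreted Wnt antagonist, Tbx3 (0.197), a T-box transcription factor, Speer4b (0.198), Nmrk1 (0.207), a kinase of the nicotinamide riboside route to NAD, and Vps13c (0.209), a lipid transfer protein. Speer4b and Nmrk1 were dim, below the 75th percentile of the intron probe sets on all 8 arrays. Tbx3 lay below their 95th percentile on all 8. Scg3 was the nearest of the granins and processing genes at 0.299, in place 374 of all genes. Vgf was the farthest at 0.524, in place 13393. After removal of the group means, which were the larger part of the Scg5 pattern, Scg5 deviated by 0.142 and the nearest genes were Rtl6, Gnb5, Gnpda1, Brf1 and Srr, at 0.041 to 0.046. Those 5 differed between the groups by -0.17 to 0.090. By this measure Scg3 was at 0.115, in place 1165 of all genes.

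Scg5 lies on chromosome 2, and the genes beside it in the RefSeq order were looked up whatever their values. Of the 6 protein-coding genes on either side, 9 were tested. Their differences ran from -0.21 for Grem1 to 0.12 for Aqr, with a median of 0.0048, and 0 of the 9 had groups that do not overlap or an unadjusted p under 0.05 (limma). Grem1, an antagonist of bone morphogenetic proteins and the next gene on one side, differed by -0.21 (standard error 0.11, adjusted p = 0.961), and Fmn1, a formin beyond it, by -0.13 (standard error 0.094, adjusted p = 0.961). Gjd2, a gap junction gene on the other side, differed by 0.0048 (standard error 0.12, adjusted p = 0.999). Ryr3, Tmco5b and Arhgap11a were not tested. The tested neighbours were dim beside Scg5, which lay above the 95th percentile of the intron probe sets on all 8 arrays. Aqr passed that level on 3 arrays, Fmn1 and Dph6 on 1 each, and the other tested neighbours on none. RMA compresses differences of dim genes, so a change in these neighbours could be understated.

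**Figure D4:**
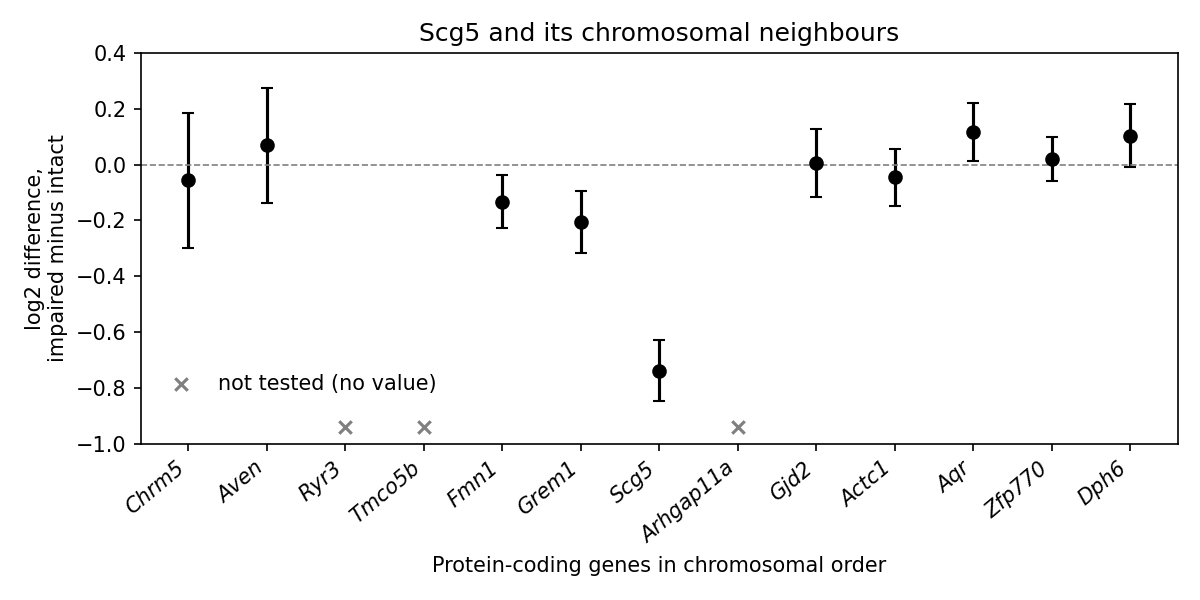
Log2 difference, impaired minus intact, with its standard error, for Scg5 and the 6 protein-coding genes on either side, in chromosomal order and not to the scale of distance; crosses at the lower edge mark the 3 genes that were not tested. Scg5 stands at -0.74 and its 9 tested neighbours, all dim beside it, between -0.21 and 0.12. Of the crosses, Ryr3 had no probe set, and Tmco5b and Arhgap11a had values but means below the floor.

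Around the members, 5 lists of genes that make, pack, release or sense peptides held 102 genes, of which 97 were tested. None passed limma's adjusted p of 0.05, nor did any with a trended and robust variance prior. At an unadjusted p under 0.05 there were 4, or 4.12%, close to the 4.68% of all genes tested, and the median difference was -0.010. Many of the genes were dim. Means above the 95th percentile of the intron probe sets were found for 7 of 14 processing enzymes, 7 of 21 cargo genes and 10 of 23 receptors. In the vesicle machinery 19 of 21 lay above it, and in presynaptic release all 18.

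Among 14 other processing enzymes tested, 8 were higher and 6 lower in the impaired group, with a median difference of 0.040. Rnpep, an aminopeptidase that removes basic residues, averaged 8.03 ± 0.14 in the impaired group and 8.26 ± 0.13 in the intact group (SD, n = 4 each; difference -0.23, limma adjusted p = 0.961). Furin, the convertase of the constitutive pathway, was 7.95 ± 0.085 in the impaired group and 7.79 ± 0.13 in the intact group (difference 0.17, limma adjusted p = 0.961). Cathepsin L, which also cleaves neuropeptide precursors and is encoded by Ctsl, was 8.80 ± 0.053 in the impaired group and 8.66 ± 0.11 in the intact group (difference 0.14, limma adjusted p = 0.961). The lowest impaired value, 8.741, lay just above the highest intact value, 8.740. Without intact mouse 3 the differences were 0.10 for Furin and 0.087 for Ctsl.

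Of 21 genes of the dense-core vesicle machinery, 14 were lower and 7 higher, with a median of -0.049. The 3 with the smallest p act in membrane traffic at the Golgi and in vesicle maturation: Vamp4 and Vti1a, which are SNARE proteins, and the GTPase Rab2a. Vamp4 was 8.36, 8.56, 8.16 and 8.35 in the impaired mice and 8.67, 8.68, 8.42 and 8.61 in the intact mice, so that impaired mouse 2 overlapped with intact mouse 3. Their differences were -0.24, -0.18 and -0.18 (limma adjusted p = 0.961 for each). Vti1a was -0.12 without impaired mouse 1, and Rab2a was -0.11 without impaired mouse 3. The median of the list was -0.021 after quantile normalization. Of 18 genes of presynaptic release of classical transmitters, 14 were lower and 4 higher, with a median of -0.043, which was 0.0047 after quantile normalization. The lowest difference of that list was that of Rims1, an active zone scaffold, at -0.19 (standard error 0.094, limma adjusted p = 0.961), and Cplx1 and Stx1a, both of the fusion machinery, differed by -0.094 and 0.16. Without intact mouse 2 these were -0.045 for Cplx1 and 0.040 for Stx1a, and with both marker scores as covariates Stx1a was 0.36.

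The cargo of these vesicles, 21 neuropeptides and growth factors tested, was higher in 15 and lower in 6, with a median of 0.080. Pdyn, the dynorphin precursor of dentate granule cells, was 7.23, 7.14, 7.21 and 7.01 in the impaired mice and 7.32, 7.63, 7.21 and 7.33 in the intact mice, a difference of -0.23 (standard error 0.10, limma adjusted p = 0.961). Impaired mouse 1 alone overlapped with the intact mice, at intact mouse 3. Crh, the corticotropin-releasing hormone, differed by 0.18 (standard error 0.093) and Npb, a dim neuropeptide gene, by -0.31 (standard error 0.16), with a limma adjusted p of 0.961 for both. Pdyn was -0.14 without intact mouse 2, and Npb was -0.16 without impaired mouse 2 and -0.14 with both marker scores as covariates. Of 23 peptide receptors tested, 13 were higher and 10 lower, with a median of 0.032. That median was below 0 under 6 of 18 alternatives, the lowest being -0.027 with both marker scores as covariates. The neuropeptide Y receptor Npy2r was 8.70, 8.50, 8.71 and 8.76 in the impaired mice and 8.97, 8.76, 9.03 and 8.78 in the intact mice. The groups touched but did not overlap, and the difference was -0.22 (standard error 0.095, limma adjusted p = 0.961). Galr1 and Sstr1, receptors of galanin and somatostatin, differed by 0.27 and -0.38 (limma adjusted p = 0.961 for both), and both lay near the floor of 5.33. Galr1 was 0.16 without intact mouse 3, and Sstr1 was -0.23 without impaired mouse 3 and -0.070 with both marker scores as covariates.

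**Figure D5:**
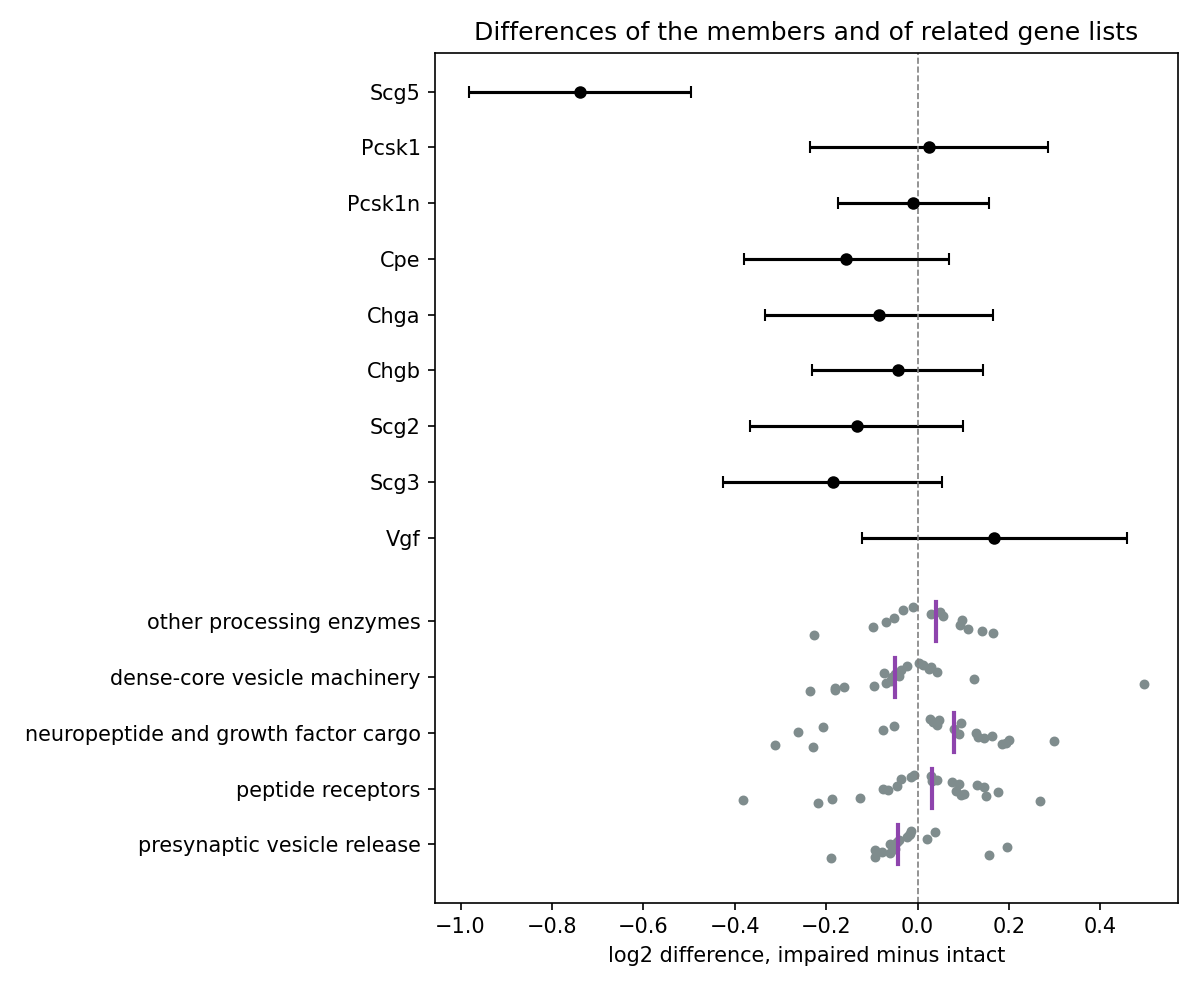
Log2 difference, impaired minus intact, of the 9 measured genes with 95% intervals (black) and of each tested gene of 5 related lists (grey points), with the list median as a purple bar. Scg5 lies at -0.74 (-0.98 to -0.49), the other 8 intervals include 0, and the list medians lie between -0.049 and 0.080.

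Markers of cell types and of neighbouring tissue are given beside Scg5 because a dissected hippocampus can hold varying amounts of them. Each mouse was given a score for each list, averaged over the deviations of the single markers from their own means. It ran for 11 neuronal markers from -0.038 to 0.060 in impaired mice and from -0.12 to 0.064 in intact mice. Of these 11, 8 were lower in the impaired group, with a median difference of -0.061. The score includes Map2, higher by 0.86, with 9.93 and 9.87 in intact mice 2 and 4 and 11.06 to 11.61 in the others. For 13 choroid plexus markers the score ran from -1.01 to 0.27 in impaired mice and from -0.97 to 0.94 in intact mice. The lowest plexus scores were those of impaired mouse 3 and intact mouse 3, in which Scg5 was 10.33 and 11.32. The highest plexus score, 0.94, was that of intact mouse 1, in which Scg5 was also highest, at 11.34. All 13 plexus markers were lower in the impaired group, with a median difference of -0.52. For 13 thalamus markers the score ran from -0.19 to 0.44 in impaired mice and from -1.39 to 0.48 in intact mice, and all 13 markers were higher in the impaired group, with a median difference of 0.29. With both scores as covariates the difference of Scg5 was -0.69 (standard error 0.13). Of 11 hypothalamus and pituitary genes, tissues rich in these peptides, 10 were measured and 6 passed the floor, with scores of -0.12 to 0.26 in impaired mice and -0.24 to 0.046 in intact mice. All 6 were dim, and 0 of them had a mean above the 95th percentile of the intron probe sets.

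The remaining marker lists overlapped between the groups too. For 9 GABAergic interneuron markers the score ran from -0.18 to 0.12 in impaired mice and from -0.11 to 0.086 in intact mice. For the 11 hippocampal markers it ran from -0.14 to 0.11 in impaired mice and from -0.15 to 0.18 in intact mice. For 10 astrocyte markers it was -0.11 to 0.10 in impaired mice and -0.11 to 0.041 in intact mice, and for 9 oligodendrocyte markers -0.33 to 0.12 in impaired mice and -0.35 to 0.30 in intact mice. All 9 oligodendrocyte markers were lower in the impaired group, with a median difference of -0.12. Scores of 9 microglial markers were -0.14 to 0.26 in impaired mice and -0.21 to 0.15 in intact mice, and those of 10 endothelial markers -0.20 to 0.093 in impaired mice and -0.011 to 0.20 in intact mice. Of the endothelial markers 9 of 10 were lower in the impaired group, with a median difference of -0.11. Scores of 9 meningeal fibroblast markers were -0.078 to 0.31 in impaired mice and -0.19 to 0.062 in intact mice. None of the neuronal, plexus, thalamus, oligodendrocyte and endothelial markers passed limma's adjusted p of 0.05. The part of these cell types in the values of Scg5 was not tested beyond the covariates named.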

How the data were processed

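The authors deposited log2 values. RMA is the tool that the submitters' processing notes name, a method that corrects background, normalizes by quantiles, summarizes each probe set and compresses differences of dim genes. Its version and the build are not given in the sources. Amplified cDNA from 1 ng of RNA was hybridized, per the labels' protocols. Probe sets were named from the platform table, the brightest was kept per gene, and the 25% of genes with the lowest mean were left out, which kept 14628.

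Differences, impaired minus intact, were fitted in R 4.3.3 by limma 3.58.1 (lmFit, eBayes, two-sided tests) with p-values adjusted by Benjamini-Hochberg over every gene kept, and the procedure was tested on simulated data. Members, lists and tests were chosen with earlier results of these data known. Besides the members, the text names the 3 genes with the smallest p of each pathway list and the 5 most like Scg5, leaving out predicted genes and olfactory and vomeronasal receptors, and the chromosomal neighbours whatever their values. Alternatives were other filters, normalizations, variance models and probe set rules, a replicate block, covariates and leaving out each mouse. No label gives a batch. The labels call the mice biological replicates.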

Additional observations from a re-analysis of the deposited data

Results flagged for a closer look

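In a group of 4, a value was looked at again where its gap to the nearest of the others exceeded Dixon's critical share of the group's range. Of 48 groups, 2 for each of the 9 members and 15 named pathway genes, 3 held such a value, and chance gives about 1 in 20. Cpe was 10.90 in impaired mouse 2, against 11.19 to 11.25 in the other impaired mice. Scg2 was 10.43 in impaired mouse 3, against 10.45 in the other 3 impaired mice, a gap of little size in a group that lay very close together. Rims1 was 10.99 in intact mouse 2, against 11.17 to 11.19 in the other intact mice.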

How the results depend on the processing

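Under all 18 alternatives the difference of Scg5 stayed between -0.81 (without intact mouse 4) and -0.69 (both tissue scores as covariates), with a limma adjusted p of 0.00958 to 0.999. Genes past an adjusted p of 0.05 numbered 0 in every fit except limma's with a trended, robust variance prior, which gave 1, Scg5; since these values chose Scg5, nothing is read from its p-values. With the dimmest 50% of genes left out, 434 of 9752 genes had an unadjusted p under 0.05, fewer genes being tested. Groups that do not overlap were counted for 622 to 1059 genes when 1 mouse was left out, since 3 values separate from 4 more easily. The median over the 9 members was -0.024 with both tissue scores as covariates, and the cause was not tested. Cpe, Scg2, Scg3, Chga and Vgf kept their sign in all 18, while Pcsk1, Pcsk1n and Chgb, all near 0, changed it in 4, 6 and 2. The 15 named pathway genes kept their sign wherever they were tested. Among medians of the pathway lists, that of the peptide receptors changed sign in 6 of the 18 and that of presynaptic release in 1. With the replicate number as a replicate block, 0 genes passed and Scg5 kept -0.74 (adjusted p = 0.986). Same-numbered mice did not deviate together over all genes (correlations of -0.10 to 0.033). The labels do not say whether the numbers pair mice, and these correlations cannot show a pairing that touches few genes. With 4 mice a group, differences near 0.2 lie within the 95% intervals of most members.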

Other observations

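Map2, a dendritic microtubule protein and 1 of the 11 neuronal markers, had the largest difference among them and went against most of the list. It was 11.41, 11.09, 11.42 and 11.61 in impaired mice 1 to 4 and 11.23, 9.93, 11.06 and 9.87 in intact mice 1 to 4, so that intact mice 2 and 4 stood more than 1 log2 unit below the other 6 mice. The difference was 0.86 (standard error 0.29, limma adjusted p = 0.961). Of the other 10 neuronal markers, 8 were lower in the impaired group. Map2 was singled out after its values were seen.

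Syt9, a calcium sensor of vesicle release, had the largest difference of the dense-core vesicle list, 0.50 (standard error 0.46, limma adjusted p = 0.961), and was likewise chosen after its values were seen. It was 7.79, 8.79, 8.37 and 8.03 in the impaired mice and 7.53, 8.66, 6.23 and 8.59 in the intact mice. Intact mouse 3, the lowest, also had the lowest score of the thalamus markers, -1.39. The part of thalamic tissue in the Syt9 values was not tested.

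Prl, a pituitary hormone gene, was 5.70, 6.52, 6.04 and 5.54 in the impaired mice and 5.32, 5.71, 4.77 and 5.56 in the intact mice, a difference of 0.61 (standard error 0.24, limma adjusted p = 0.961). On no array did it reach the 95th percentile of the intron probe sets, and it was chosen after its values were seen.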
